A study of Mus musculus with 14 samples.

Results

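The haem biosynthesis genes described here are Slc25a38, Alas1, Alas2, Alad, Uros, Urod, Cpox, Ppox and Fech, 9 of the 47729 genes in the deposited count table. They were taken by symbol and are given in pathway order. The pathway was chosen by its measured levels in these same libraries, with earlier contrasts of CD105+ and CD200+ cells known, so its levels and calls are a description and not independent evidence. All 9 genes were found in the table and all 9 passed the filter on low counts. RNA was sequenced from 14 libraries of cells sorted from the knee synovium, the lining tissue of the joint, of C57BL6 mice aged 16 weeks. Arthritic mice gave 5 libraries of CD200-CD105+ cells and 5 of CD200+CD105- cells, and non-immunized mice gave 4 of the CD200+CD105- kind. Antigen-induced arthritis was raised by immunization with methylated bovine serum albumin in complete Freund's adjuvant and a later injection of that protein into the joint, while non-immunized mice received phosphate buffered saline. The cells were collected 10 days after that injection, and CD105+ cells of non-immunized mice were not analysed here. All samples were TER119-, CD31-, CD45- and CD51+, and each held 200 to 500 live cells. TER119 is carried by red cells and their late precursors, CD31 by endothelium and CD45 by leukocytes. Libraries carry the numbers of the labels, which are 10 to 14 for arthritic CD105+ cells, 5 to 9 for arthritic CD200+ cells and 1 to 4 for non-immunized CD200+ cells. The labels do not say whether samples came from separate animals, so p-values measure only the spread between these samples.

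Haem is an iron-bearing ring that carries oxygen in haemoglobin and electrons in respiratory and other enzymes. Its synthesis starts in the mitochondrion, where glycine and succinyl-CoA are joined, continues in the cytosol, and ends in the mitochondrion with the insertion of iron. Every nucleated cell makes some haem, with ALAS1 as the general form of the first enzyme, whereas red cell precursors make far more, with ALAS2 as their own form.

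Total counts ranged from 12177437 to 32024412 in arthritic CD105+ libraries, from 23477780 to 36382683 in arthritic CD200+ libraries and from 31424217 to 40331071 in non-immunized CD200+ libraries. Counts on mouse genes ranged from 2919666 to 18553803, and the rest fell on added ERCC spike-in RNA. Spike-ins took over 80% of the counts in 3 libraries, at 87.4% in arthritic CD200+ library 5, 92.0% in arthritic CD200+ library 6 and 85.4% in non-immunized CD200+ library 2. Levels are in CPM, counts scaled to 1 common library size over tested genes with TMM factors, and 3 counts, taken as the limit that a count of 0 allows, equal 0.171 to 0.914 CPM in a library. That limit covers counting error only, since reads carry no molecular identifiers. Cd200 averaged 2.30 ± 5.14 CPM in arthritic CD105+ cells, against 420 ± 98.8 CPM in arthritic CD200+ cells (SD, n = 5 each). Eng, which encodes CD105, averaged 6.63 ± 4.87 CPM in arthritic CD105+ cells and 0.504 ± 0.584 CPM in arthritic CD200+ cells (SD, n = 5 each), with overlapping libraries. In non-immunized CD200+ cells Eng averaged 5.29 ± 5.71 CPM (SD, n = 4). Library 1 of that group, at 12.3 CPM, lay above every CD105+ library, and CD105+ library 10 had 0 Eng counts.

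Upstream sequence from RefSeq on GRCm38.p6 was taken for 8 of the 9 genes, and Fech was left out. Each window ran from 250 to 51 bases before an annotated start site and was searched on both strands for AGATAA or TGATAA, letters bound by GATA factors, and for CACCC, letters bound by Krüppel-like factors. These motifs share no letters with one another in any printed window. The 8 genes have 11 windows, since Alas1, Alad and Uros have 2 start sites each. GATA letters were found in 3 of the 11 windows (Alas2, Cpox and 1 of Uros), against 14.2% of 32817 windows of all genes. CACCC was found in 4 of the 11 windows (Slc25a38, Cpox and both of Alas1), against 44.4% of all windows, and 4.88% of all windows held both. Both Alas1 windows lie almost wholly in annotated exons, with 196 and 200 of 200 bases. The Uros window with the match holds 66 exonic bases and the other 183. The windows of Alas2, Cpox and Urod are printed because Alas2 and Cpox had the largest fold changes between the arthritic populations, and Urod also rose while its window holds neither motif. They are written 5′ to 3′ on the strand of the gene, with matches in capitals, so that a match on the other strand appears as its reverse complement. They lie at chrX:150547167-150547366 on the plus strand for Alas2, at chr16:58669958-58670157 on the plus strand for Cpox and at chr4:116994464-116994663 on the minus strand for Urod. None of the 3 printed windows holds an annotated exon.
Alas2: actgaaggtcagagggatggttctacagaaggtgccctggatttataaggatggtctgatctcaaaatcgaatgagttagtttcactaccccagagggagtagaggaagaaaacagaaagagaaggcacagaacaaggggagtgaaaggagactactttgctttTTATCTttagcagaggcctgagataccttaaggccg
Cpox: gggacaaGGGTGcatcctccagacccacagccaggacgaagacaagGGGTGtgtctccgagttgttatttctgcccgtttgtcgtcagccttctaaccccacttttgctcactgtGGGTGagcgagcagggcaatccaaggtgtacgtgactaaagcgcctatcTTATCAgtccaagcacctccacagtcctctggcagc
Urod: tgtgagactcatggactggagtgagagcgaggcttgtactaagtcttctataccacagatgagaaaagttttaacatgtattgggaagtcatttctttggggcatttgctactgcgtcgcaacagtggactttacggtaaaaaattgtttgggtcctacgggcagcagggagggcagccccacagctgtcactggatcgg
In Alas2 the single match lay 86 bases before the start site, and in Cpox the GATA match also lay 86 bases before it, with CACCC matches at 243, 204 and 135 bases. A match describes letters only and shows neither binding nor a cause.

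Between the arthritic populations, 8 of the 9 genes had higher levels in CD105+ than in CD200+ cells, and Alas1 was the exception, with a sign that turned under spike-in scaling. In the edgeR quasi-likelihood fit over 15015 genes with Benjamini-Hochberg adjustment, 7 of the 9 rose at an adjusted p under 0.05, namely Slc25a38, Alas2, Alad, Urod, Cpox, Ppox and Fech, and 0 fell. Over all genes tested, 11.3% were called, 4.79% as higher and 6.48% as lower, or 719 and 973 genes. With library sizes taken from the spike-ins these were 390 and 155 genes, as that scaling put the median log2 change of all genes at 1.22, against -0.05 with TMM. All libraries of arthritic CD105+ cells lay above all libraries of arthritic CD200+ cells for 8 of the 9 genes and below them for 0, against 10.4% and 6.33% of all genes tested. The median log2 change was 4.33 over the 9 genes and -0.05 over all genes tested. In pools of sorted cells, fewer cells of a type and less RNA per cell cannot be told apart.

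**Figure D1:**
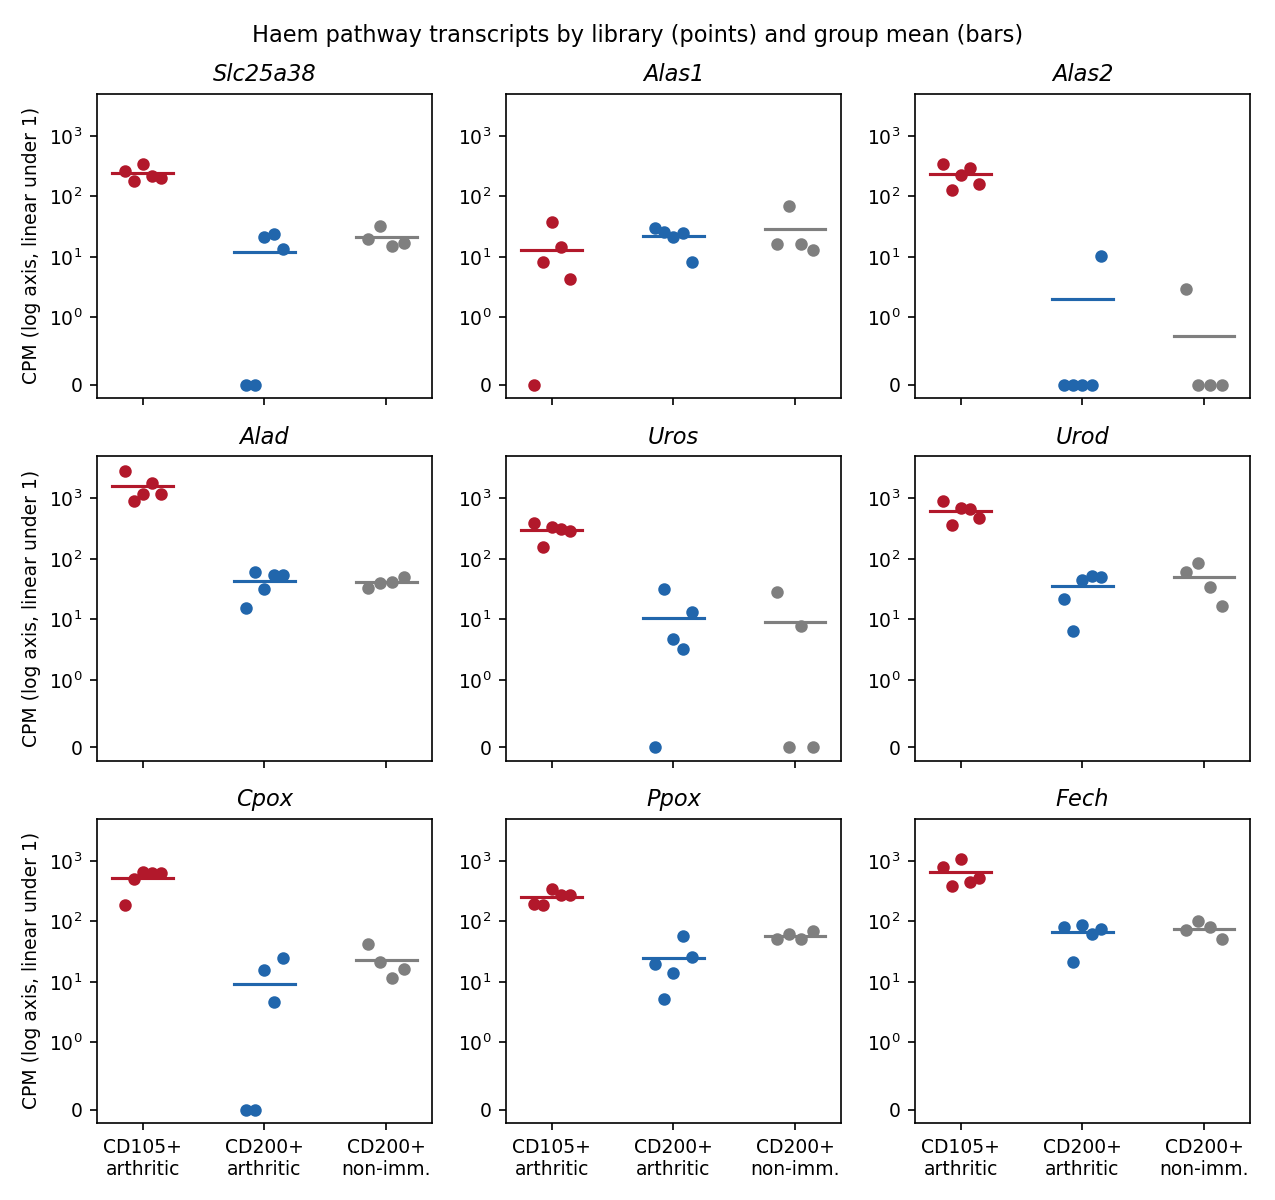
CPM of each haem pathway gene in every library (points; vertical log axis, linear under 1 CPM), with the group mean as a bar, for arthritic CD105+ (n = 5), arthritic CD200+ (n = 5) and non-immunized CD200+ cells (n = 4). The CD105+ points lie above both CD200+ groups in 8 panels, and in the Alas1 panel the groups overlap.

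The mitochondrial entry of the pathway holds the glycine carrier and the 2 forms of aminolevulinate synthase. Slc25a38 (ENSMUSG00000032519, GRCm38 chromosome 9, 120110374 to 120124504), whose product brings glycine into mitochondria, stood at 259, 179, 347, 217 and 198 CPM in arthritic CD105+ libraries 10 to 14. It stood at 0, 0, 21.7, 24.2 and 13.4 CPM in arthritic CD200+ libraries 5 to 9, and at 19.5, 32.7, 14.9 and 16.6 CPM in non-immunized CD200+ libraries 1 to 4. The groups do not overlap between populations, and both libraries at 0 are those over 80% spike-ins in the arthritic CD200+ group. Between arthritic CD105+ and CD200+ cells the log2 change was 4.33 ± 1.13 (SE, edgeR adjusted p = 0.0257), and 3.66 without the 3 libraries over 80% spike-ins (adjusted p = 0.000564). It no longer passed without library 9 (log2 change 4.37, adjusted p = 0.0536) or with spike-in scaling (4.90, adjusted p = 0.0618).

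Alas2 (ENSMUSG00000025270, chromosome X, 150547375 to 150570638), the erythroid form of the synthase, stood at 340, 130, 226, 295 and 161 CPM in arthritic CD105+ libraries 10 to 14. It was at 0 in arthritic CD200+ libraries 5 to 8 and at 10.2 CPM in library 9, and at 0 in non-immunized CD200+ libraries 2 to 4 and at 2.91 CPM in library 1. Alas2 counts were thus found in each of the 5 CD105+ libraries and in 2 of the 9 CD200+ libraries. Its log2 change of 6.74 ± 1.99 (SE) between arthritic CD105+ and CD200+ cells passed narrowly (edgeR adjusted p = 0.0433). It no longer passed when any 1 of libraries 5 to 8 or 10 to 14 was left out, with log2 changes of 6.42 to 6.90 and adjusted p of 0.0551 to 0.0756. Without library 9, which held all 162 Alas2 counts of arthritic CD200+ cells, the fitted change was 14.4 (adjusted p = 0.00873), a value that depends on the prior count because the group is then at 0. Without the 3 libraries over 80% spike-ins the change was 6.14 (adjusted p = 0.0948), and it was also not called with spike-in scaling (7.07, adjusted p = 0.0707) or without the filter on low counts (6.80, adjusted p = 0.0603). In all, Alas2 passed in 11 of 23 alternatives. Of the exon length of Alas2, 15.3% is shared with Apex2 on the opposite strand, and no source used here states whether counting used strand. Apex2 averaged 16.1 ± 6.69 CPM in arthritic CD105+ and 3.29 ± 3.82 CPM in arthritic CD200+ cells (SD, n = 5 each). In non-immunized CD200+ cells Apex2 averaged 15.9 ± 16.2 CPM (SD, n = 4). It stood there at 8.14, 39.1, 2.22 and 14.1 CPM in libraries 1 to 4, of which 2 to 4 had 0 Alas2 counts. The part of Apex2 reads in the Alas2 counts was not tested.

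Alas1 (ENSMUSG00000032786, chromosome 9, 106233455 to 106248654), the form used by most cells, stood at 0, 8.34, 38.0, 14.5 and 4.36 CPM in arthritic CD105+ libraries 10 to 14. It stood at 30.1, 25.9, 21.0, 24.9 and 8.27 CPM in arthritic CD200+ libraries 5 to 9, and at 16.1, 69.7, 16.3 and 13.1 CPM in non-immunized CD200+ libraries 1 to 4. The groups overlap, and library 12 holds both the highest CD105+ value and a value above every arthritic CD200+ library. The log2 change between arthritic CD105+ and CD200+ cells was -0.75 ± 1.05 (SE, edgeR adjusted p = 0.719), and its sign turned with spike-in scaling, to 0.44. Scaled to exon length, Alas2 exceeded Alas1 by 30.2, 11.6, 39.6 and 71.9 times in CD105+ libraries 11 to 14. In library 10 that ratio was 987 when 3 counts stood for the absent Alas1, a limit that covers counting error only. In arthritic CD200+ library 9 that ratio was 2.40 and in non-immunized CD200+ library 1 it was 0.351, while the other 7 CD200+ libraries had Alas1 counts and no Alas2 count.

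Alad, Uros and Urod act in the cytosol. Alad (ENSMUSG00000028393, chromosome 4, 62509169 to 62519918), whose product joins aminolevulinate molecules into the first pyrrole, stood at 2855, 905, 1171, 1823 and 1184 CPM in arthritic CD105+ libraries 10 to 14. It stood at 15.4, 61.8, 32.3, 55.2 and 54.0 CPM in arthritic CD200+ libraries 5 to 9, and at 32.4, 39.4, 41.3 and 50.2 CPM in non-immunized CD200+ libraries 1 to 4. The lowest CD105+ library thus lies well above the highest CD200+ library. Its log2 change between arthritic CD105+ and CD200+ cells was 5.18 ± 0.45 (SE, edgeR adjusted p = 4.14e-05), and it passed under all 23 alternatives.

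Uros (ENSMUSG00000030979, chromosome 7, 133686243 to 133710072), whose product closes the ring to uroporphyrinogen III, stood at 397, 160, 332, 307 and 286 CPM in arthritic CD105+ libraries 10 to 14. It stood at 0, 31.7, 4.68, 3.21 and 13.1 CPM in arthritic CD200+ libraries 5 to 9, and at 28.0, 0, 7.91 and 0 CPM in non-immunized CD200+ libraries 1 to 4. The populations do not overlap, yet the log2 change of 4.83 ± 1.55 (SE) between arthritic CD105+ and CD200+ cells missed the threshold (edgeR adjusted p = 0.0593). It passed in 9 of 23 alternatives, among them DESeq2 (adjusted p = 0.00962) and edgeR without library 2, 4 or 6 (adjusted p = 0.0415, 0.0358 and 0.0480).

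Urod (ENSMUSG00000028684, chromosome 4, 116989965 to 116994413), whose product trims uroporphyrinogen to coproporphyrinogen, stood at 890, 360, 687, 657 and 477 CPM in arthritic CD105+ libraries 10 to 14. It stood at 21.6, 6.40, 44.2, 53.1 and 50.4 CPM in arthritic CD200+ libraries 5 to 9, and at 60.1, 86.3, 34.9 and 16.9 CPM in non-immunized CD200+ libraries 1 to 4. The populations do not overlap. The log2 change between arthritic CD105+ and CD200+ cells was 4.12 ± 0.59 (SE, edgeR adjusted p = 0.000855).

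The last 3 steps return to the mitochondrion. Cpox (ENSMUSG00000022742, chromosome 16, 58670292 to 58717636), coproporphyrinogen oxidase, stood at 186, 507, 664, 623 and 636 CPM in arthritic CD105+ libraries 10 to 14. It stood at 0, 0, 15.6, 4.64 and 25.3 CPM in arthritic CD200+ libraries 5 to 9, and at 42.7, 21.5, 11.5 and 16.5 CPM in non-immunized CD200+ libraries 1 to 4. The populations do not overlap, and library 10 is the low one among CD105+ cells. The log2 change between arthritic CD105+ and CD200+ cells was 5.82 ± 1.22 (SE, edgeR adjusted p = 0.00908), and 5.15 without the 3 libraries over 80% spike-ins (adjusted p = 0.00314).

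Ppox (ENSMUSG00000062729, chromosome 1, 171275990 to 171281186), protoporphyrinogen oxidase, stood at 191, 185, 347, 273 and 269 CPM in arthritic CD105+ libraries 10 to 14. It stood at 20.02, 5.18, 13.8, 57.8 and 25.8 CPM in arthritic CD200+ libraries 5 to 9, and at 51.8, 62.4, 50.5 and 69.2 CPM in non-immunized CD200+ libraries 1 to 4. The CD105+ libraries stand above all others, and 4 of the 5 arthritic CD200+ libraries lie below the non-immunized ones. The log2 change between arthritic CD105+ and CD200+ cells was 3.36 ± 0.52 (SE, edgeR adjusted p = 0.00150).

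Fech (ENSMUSG00000024588, chromosome 18, 64452914 to 64490251), ferrochelatase, which inserts the iron, stood at 791, 389, 1067, 453 and 523 CPM in arthritic CD105+ libraries 10 to 14. It stood at 81.1, 21.6, 88.4, 62.4 and 75.5 CPM in arthritic CD200+ libraries 5 to 9, and at 72.5, 101, 80.3 and 50.8 CPM in non-immunized CD200+ libraries 1 to 4. The populations do not overlap, and Fech had counts in every library. The log2 change between arthritic CD105+ and CD200+ cells was 3.29 ± 0.41 (SE, edgeR adjusted p = 0.000322).

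**Figure D2:**
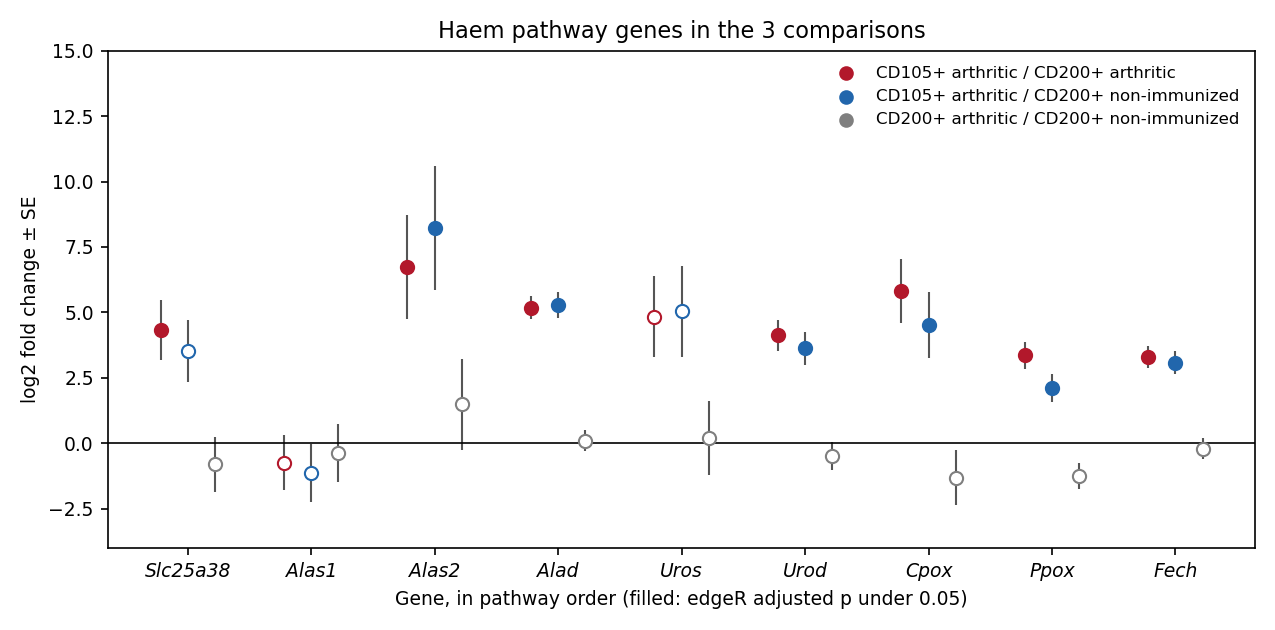
Log2 fold change with its SE (vertical axis) of each gene in pathway order, for arthritic CD105+ against arthritic CD200+ cells, arthritic CD105+ against non-immunized CD200+ cells, and arthritic against non-immunized CD200+ cells. Filled points passed edgeR's adjusted p of 0.05, which are 7, 6 and 0 genes in these comparisons, and Alas1 lies below 0 in all of them, a sign that turns with spike-in scaling.

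Against non-immunized CD200+ cells, arthritic CD105+ cells again had higher levels of all genes but Alas1, whose sign turned under spike-in scaling, and 6 of the 9 passed as higher and 0 as lower in the edgeR fit, against 5.57% and 7.63% of all genes tested (13.2% in all). The split of all called genes was 836 higher and 1146 lower with TMM, 669 and 1430 with RLE factors, which put the median log2 change of all genes at -0.50 in place of -0.24, and 167 and 111 with spike-in scaling, which put it at 1.21. This comparison shares its CD105+ libraries with the previous one. Alas2, Alad, Urod, Cpox, Ppox and Fech passed. The log2 change of Alas2 was 8.22 ± 2.36 (SE, edgeR adjusted p = 0.0352) and that of Alad 5.28 ± 0.50 (SE, edgeR adjusted p = 6.80e-05). Ppox had the smallest of the 6, at 2.11 ± 0.53 (SE, edgeR adjusted p = 0.0201). Slc25a38 and Uros did not pass, at 3.52 ± 1.19 and 5.03 ± 1.72 (SE, edgeR adjusted p = 0.0646 and 0.0672), although for both every arthritic CD105+ library lay above every non-immunized CD200+ library. Such separation held for 8 of the 9 genes and for 12.5% of all genes tested, and the reverse for 0 of the 9 and 11.5% of all. Alas1 stood at -1.14 ± 1.10 (SE, edgeR adjusted p = 0.544), or 0.46 with spike-in scaling. The count of 6 was 3 without library 3 or with spike-in scaling, 4 without library 1, 2, 4, 13 or 14, and 8 without the 3 libraries over 80% spike-ins. Alas2 was lost without library 2, 3, 4, 10, 13 or 14 (adjusted p of 0.0560 to 0.0754), Cpox without library 1, 2, 3, 4, 13 or 14 (0.0523 to 0.0800) and Ppox without library 1 or 3 (0.0503 and 0.0515). Slc25a38 passed without library 5 or 6 (adjusted p = 0.0195 and 0.0245) and Uros without library 5 (adjusted p = 0.0427).

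Within CD200+ cells, arthritic and non-immunized libraries were compared to ask whether arthritis itself moved the pathway. In edgeR 0 of the 9 genes passed, and 0% of all genes tested did. The 2 groups overlapped for all 9 genes, while 1.11% of all genes lay wholly higher and 1.18% wholly lower in arthritic cells. At an unadjusted p under 0.05 there was 1 of the 9, Ppox, against 6.09% of all genes, and DESeq2 and limma voom also called 0 of the 9. Ppox averaged 24.5 ± 20.1 CPM in arthritic cells (SD, n = 5) and 58.5 ± 8.93 CPM in non-immunized cells (SD, n = 4). Its log2 change was -1.25 ± 0.50 (SE, edgeR adjusted p = 0.675), and the groups overlap only through library 8. Fech averaged 65.8 ± 26.5 CPM in arthritic and 76.2 ± 21.0 CPM in non-immunized cells, and its log2 change was -0.21 ± 0.40 (SE). Alad averaged 43.7 ± 19.4 CPM in arthritic and 40.8 ± 7.31 CPM in non-immunized cells, at 0.10 ± 0.40 (SE). The signs of Slc25a38, Alas1, Alas2, Alad, Uros, Urod and Fech turned under at least 1 alternative, while Cpox and Ppox stayed lower in all 23. For Cpox the log2 change was -1.32 ± 1.05 (SE, edgeR adjusted p = 1) and both arthritic libraries at 0 are those over 80% spike-ins. In a fit of the CD200+ libraries alone, Alas2 no longer passed the filter on low counts.

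Scaled to exon length, the pathway was uneven in arthritic CD105+ cells. Alad was highest at 1249 ± 618 CPM per kb, followed by Urod at 412 ± 137 CPM per kb, and each lay above every library of the next gene in order (SD, n = 5). Cpox, Ppox, Slc25a38, Uros, Alas2 and Fech followed at 169 ± 63.9, 139 ± 36.8, 134 ± 37.4, 125 ± 36.6, 113 ± 43.3 and 89.5 ± 39.1 CPM per kb, and neighbours in this order differ by less than their spread. Alas1 was last at 3.30 ± 3.78 CPM per kb, with no library near those of Fech. The place of Fech depends on the length used, because its annotated exons span 7198 bases and its coding part 1369 bases. Per kb of coding length Fech followed Alad and Urod, at 471 ± 205 CPM. In arthritic CD200+ cells Alad led at 34.4 ± 15.2 CPM per kb, with Urod at 23.6 ± 13.6 CPM per kb, and Alas2 was last at 1.00 ± 2.24 CPM per kb (SD, n = 5). In non-immunized CD200+ cells Urod, Alad and Ppox stood side by side at 33.3 ± 20.3, 32.1 ± 5.75 and 32.1 ± 4.90 CPM per kb, and Alas2 was again last at 0.357 ± 0.713 CPM per kb (SD, n = 4).

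**Figure D3:**
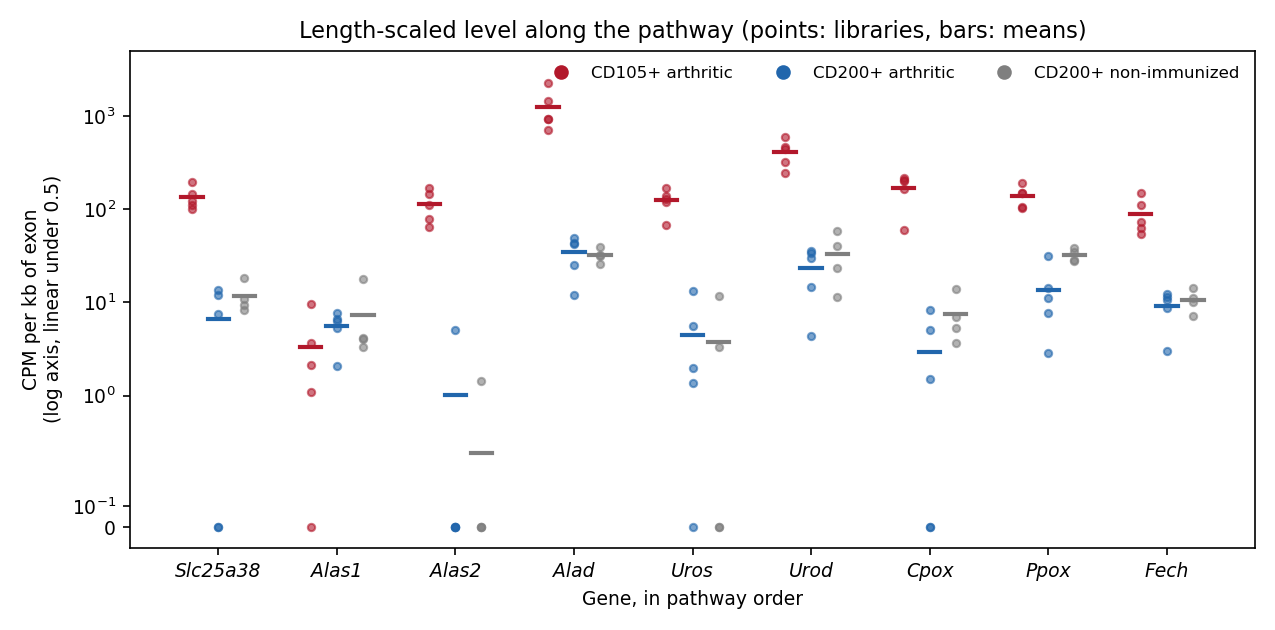
Level per kb of annotated exon (vertical log axis, linear under 0.5) along the pathway, with libraries as points and group means as bars, for arthritic CD105+, arthritic CD200+ and non-immunized CD200+ cells. In CD105+ cells Alad and Urod stand above the rest and Alas1 far below, while Alas2 is lowest in both CD200+ groups.

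The 5 CD105+ libraries did not share 1 profile of the pathway. Library 10 had the highest Alas2, Alad, Uros and Urod, at 1.47, 1.80, 1.34 and 1.45 times the mean of the 5 libraries, and the lowest Cpox, at 0.355 times. Library 12 had the highest Slc25a38, Alas1, Cpox, Ppox and Fech, at 1.45, 2.92, 1.27, 1.37 and 1.66 times the mean. Library 11 was lowest in all genes but Alas1 and Cpox, at 0.539 to 0.745 times the mean. The haemoglobin share of gene counts, over 4 globin genes, was highest in library 10 at 18.3% and lowest in library 12 at 2.71%, and was 5.47%, 6.54% and 7.99% in libraries 11, 13 and 14. Library 10 also had the fewest gene counts of the CD105+ libraries, 5968096. Without it Alad averaged 1271 ± 390 CPM and Cpox 607 ± 69.2 CPM (SD, n = 4), against 1588 ± 785 and 523 ± 198 CPM with it (SD, n = 5). The coefficient of variation over the 5 libraries lay between 26.5% for Ppox and 49.4% for Alad in the 8 genes other than Alas1, for which it was 115%. With 5 libraries no correlation with haemoglobin was computed.

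**Figure D4:**
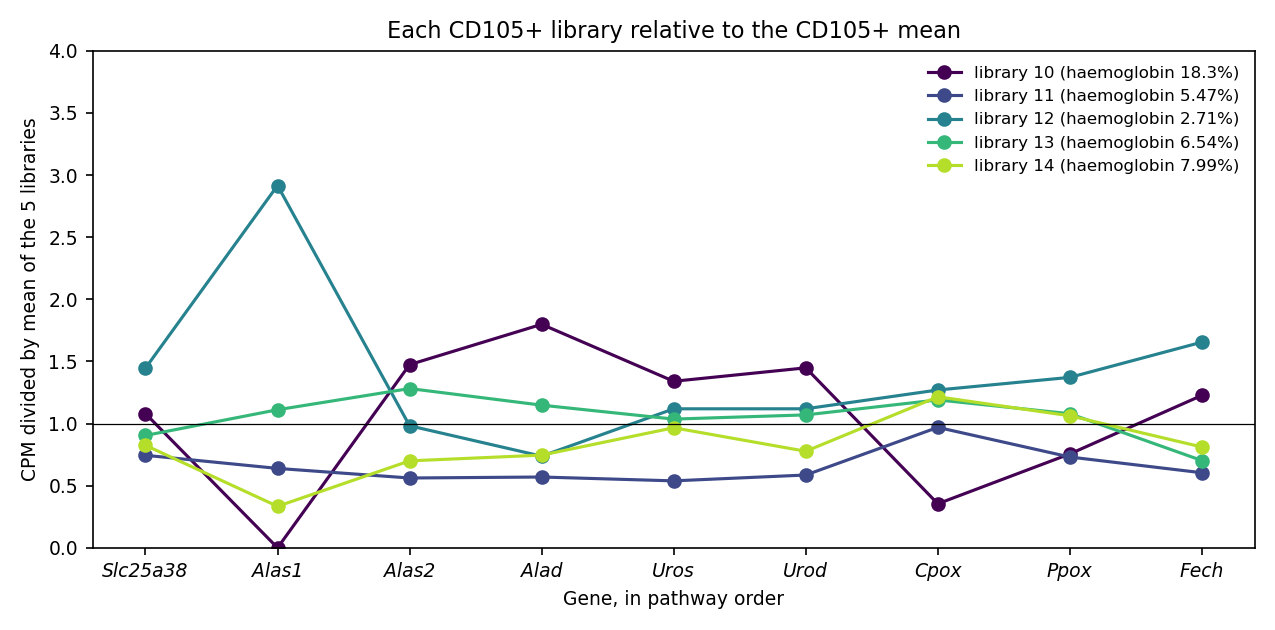
CPM of each gene in arthritic CD105+ libraries 10 to 14, divided by the mean of the 5 libraries (vertical axis), in pathway order, with each library's haemoglobin share of gene counts in the legend. Library 10 lies highest from Alas2 to Urod and lowest at Cpox, and library 12 is highest at Slc25a38, Alas1 and from Cpox to Fech. This order depends on the scaling, and per spike-in count library 14 is highest at all genes but Alas1.

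Genes around the pathway were taken from lists. Between the arthritic populations, 4.79% of all genes tested passed as higher and 6.48% as lower in edgeR. Of 6 iron supply genes, 1 rose in arthritic CD105+ against arthritic CD200+ cells in edgeR, which was Abcb10, whose product works with the iron carrier mitoferrin in the inner mitochondrial membrane. It averaged 290 ± 121 CPM in CD105+ and 5.17 ± 6.78 CPM in CD200+ cells (SD, n = 5 each; adjusted p = 0.0224). Tfrc, the transferrin receptor, averaged 585 ± 200 CPM in CD105+ and 31.3 ± 27.3 CPM in CD200+ cells (adjusted p = 0.0511), and Slc25a37, mitoferrin 1, averaged 219 ± 126 CPM in CD105+ and 21.3 ± 16.7 CPM in CD200+ cells (adjusted p = 0.0979). Neither of these 2 passed. Of 7 genes for iron-sulphur clusters 4 rose, led by Glrx5, a glutaredoxin of cluster transfer, at 2039 ± 686 CPM in CD105+ and 198.6 ± 106 CPM in CD200+ cells (adjusted p = 0.000181).

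Of 11 genes of porphyrin and haem transport 2 rose between the arthritic populations, where 4.79% of all genes tested passed as higher. Tmem14c, needed for the import of protoporphyrinogen into the mitochondrial matrix, averaged 1978 ± 769 CPM in CD105+ and 81.8 ± 38.9 CPM in CD200+ cells (edgeR adjusted p = 0.000147). Tspo2, an erythroid membrane protein, averaged 325 ± 75.6 CPM in CD105+ cells and had 0 counts in arthritic CD200+ cells (edgeR adjusted p = 0.00646). Of 4 haem breakdown genes 1 rose, Blvrb, a biliverdin reductase abundant in red cells, at 3629 ± 1743 CPM in CD105+ and 86.8 ± 49.8 CPM in CD200+ cells (edgeR adjusted p = 4.41e-05). Hmox1, the inducible haem oxygenase that opens the ring, stood at 3.61 ± 5.98 CPM in CD105+ and 0.0755 ± 0.169 CPM in CD200+ cells and did not pass (edgeR adjusted p = 0.154). Of 6 regulators, among them the haem-sensing repressor Bach1 and the haem-regulated kinase Eif2ak1, 0 passed in edgeR. Eif2ak1 had the lowest p of the list, at an adjusted p of 0.149 and an unadjusted p of 0.0352 in the edgeR fit across all genes, and averaged 194 ± 75.7 CPM in CD105+ and 29.5 ± 28.4 CPM in CD200+ cells. Of 5 tested genes supplying glycine and succinyl-CoA 0 passed, where 11.3% of all genes tested did. Shmt2 had the lowest p of these 5, at an edgeR adjusted p of 0.170 and an unadjusted p of 0.0432. The median log2 changes were 3.79 for iron supply, 1.39 for iron-sulphur clusters, 2.87 for transport, 3.93 for breakdown, 0.16 for regulators and 0.85 for glycine and succinyl-CoA supply, against -0.05 for all genes tested. Within CD200+ cells 0 members of these lists passed between arthritic and non-immunized mice, and 0% of all genes tested did.

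Most markers of red cell precursors moved with the haem genes. The summed level of 16 erythroid markers was 3802 to 7742 CPM in arthritic CD105+ libraries, against 22.7 to 50.9 CPM in arthritic CD200+ libraries and 35.5 to 207 CPM in non-immunized CD200+ libraries. Of the 16, 14 rose in arthritic CD105+ against arthritic CD200+ cells in edgeR, where 4.79% of all genes did, and 6 rose against non-immunized CD200+ cells, where 5.57% of all genes did. Of 4 haemoglobin genes, 1 rose in the former comparison and 0 in the latter, although all 4 log2 changes were above 0 in both. In arthritic CD200+ cells 10 of the 16 erythroid markers had 0 counts in all 5 libraries. Klf1, an erythroid transcription factor gene, averaged 968 ± 369 CPM in CD105+ cells with 0 counts in arthritic CD200+ cells, and Rhd, a red cell membrane protein gene, averaged 1281 ± 505 CPM with 0 counts in arthritic CD200+ cells. Ank1, which other cells also use, stood at 29.4 ± 9.05 CPM in CD105+ and 32.2 ± 17.5 CPM in arthritic CD200+ cells. Nfe2 also did not pass, at 80.7 ± 41.7 CPM in CD105+ and 5.22 ± 11.7 CPM in arthritic CD200+ cells (edgeR adjusted p = 0.288). Summed osteoblast and stromal markers went the other way, at 144 to 1779 CPM in arthritic CD105+ libraries, against 25763 to 47214 CPM in arthritic CD200+ and 45755 to 129440 CPM in non-immunized CD200+ libraries. Spp1 made up most of the sum in CD200+ cells, at a mean of 29877 CPM in arthritic and 50107 CPM in non-immunized ones. Of these 10 markers, 6 passed as lower against arthritic CD200+ cells in edgeR, where 6.48% of all genes did. Against non-immunized CD200+ cells 9 passed as lower, where 7.63% of all genes did. Summed macrophage markers stood at 5515 CPM in CD105+ library 11 and at 0 to 16.8 CPM in the other 4 CD105+ libraries, against 0 to 62.7 CPM in arthritic CD200+ and 0 to 274 CPM in non-immunized CD200+ libraries. Summed neutrophil markers stood at 1049 CPM in CD105+ library 11 and at 0 to 174 CPM in the other 4, against 0 to 177 CPM in arthritic CD200+ libraries, and at 7011 and 2005 CPM in non-immunized CD200+ libraries 3 and 4. Summed B and plasma cell markers stood at 44.5 CPM in CD105+ library 11, against at most 0.453 CPM in arthritic CD200+ libraries and 1622 CPM in non-immunized CD200+ library 3. Library 3 is the one without which 3 of the 9 haem genes, in place of 6, passed against non-immunized cells. That number was 4 without library 1, 2 or 4, and summed neutrophil markers stood at 15.6 and 4.86 CPM in libraries 1 and 2. The part of these markers in the number called was not tested. Without library 11, 6 of the 9 haem genes passed between the arthritic populations. The call lost was that of Alas2, which was also lost without any 1 of the other CD105+ libraries. In arthritic CD200+ library 9, which has Alas2 counts, haemoglobin took 1.07% of gene counts, against at most 0.0287% in libraries 5 to 8. Summed erythroid markers of library 9 stood at 28.6 CPM, within the 22.7 to 50.9 CPM of its group. In non-immunized CD200+ cells Alas2 was found in library 1, with 207 CPM of erythroid markers, and not in library 4, with the highest haemoglobin share of the group, 0.977%, and 50.5 CPM of erythroid markers. The part of red cell precursors in the haem gene levels was not tested.

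Across the 14 libraries, the genes most like Alas2 were found by Pearson's r of edgeR's log2 CPM with a prior count of 1, over 8952 genes with a regular symbol and a mean of at least 10 CPM. The leading 5 were Bex4, Clca3a1, Abcb4, Cldn13 and Ccne1, with r of 0.985, 0.979, 0.976, 0.970 and 0.969. Among the pathway itself, r with Alas2 was highest for Alad at 0.954 and Urod at 0.921, and negative for Alas1 at -0.575. The mean standardized level of all 9 genes was matched best by Impdh2-ps, Rrm1, Abcb4, Mcm7 and Pklr, with r of 0.976, 0.974, 0.964, 0.961 and 0.959. Pklr encodes the pyruvate kinase of liver and red cells, and averaged 69.3 CPM in CD105+ cells, 0 in arthritic CD200+ and 0.0581 in non-immunized CD200+ cells. The libraries fall into CD105+ and CD200+ populations that stand apart, so the points are not independent and r carries no test.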

How the data were processed

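Per the labels' protocols, ERCC spike-ins were added, SMART-Seq v4 was used for cDNA and Nextera XT for libraries. Tools named in the submitters' processing notes are HISAT2, StringTie, cutadapt and edgeR, with no version or role, and GRCm38 and mm10 are the builds named there. The authors deposited whole-number counts per gene, 1 column per library, and every column mapped to a sample by title. A further deposited table, named as normalized, holds 14322 of the same entries with 0 values that differ, and was not used. Blank or total rows were absent, and 92 spike-ins stayed out of library sizes and tests.

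Symbols, positions and exon lengths came from GENCODE M21 (GRCm38), which matched 47224 of 47729 gene IDs. Lengths are the union of exons, or of coding parts, over basic transcripts. With edgeR 4.0.16 in R 4.3.3, filterByExpr (minimum count 10) kept 15015 genes. After TMM scaling, 1 robust quasi-likelihood fit held all 14 libraries in 3 groups (common biological coefficient of variation 1.28). Tests were two-sided, adjusted by Benjamini-Hochberg over all genes tested, with a threshold of 0.05. The SE was taken as |log2 change| over the root of F. The fit was checked on simulated data. Pairs of libraries of a group differed far beyond counting noise, so none was merged. Alternatives used DESeq2 1.42.0, limma 3.58.1, other scalings and filters, and left-out libraries. The genes, lists, tests and alternatives were chosen with earlier results of these data known. All 9 pathway genes are named, and from each other list at most 4 genes with the smallest p between the arthritic populations. Beyond these, Klf1, Ank1, Cd200, Eng and Apex2 were added for their role or position, and Nfe2 because it did not pass. Pklr is named by its likeness to the pathway's mean.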

Additional observations from a re-analysis of the deposited data

Results flagged for a closer look

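Of 27 sets of values (9 genes in 3 groups), 3 had 1 library far from the rest of its group, by Dixon's test on the gap to the nearest library. Chance flags about 1 in 20 sets of values without ties. That rate does not apply to both Alas2 sets, in which all libraries but 1 are at 0, so that any count would have been flagged. Alas2 stood at 10.2 CPM in arthritic CD200+ library 9, with 0 counts in the other 4 libraries of that group. Alas2 stood at 2.91 CPM in non-immunized CD200+ library 1, with 0 counts in the other 3. Alas1 stood at 69.7 CPM in non-immunized CD200+ library 2, where the next library had 16.3 CPM. Library 2 has 85.4% of its counts on spike-ins.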

How the results depend on the processing

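No paired analysis was possible because the library numbers in the labels are unique to each sample. Between arthritic CD105+ and CD200+ cells the number of haem genes called stayed between 6 and 8 under all 23 alternatives, each as higher, and was 6 to 8 with 1 library left out. Against non-immunized CD200+ cells it was 3 with spike-in scaling, 3 to 8 with 1 library left out, and 5 to 8 otherwise. Within CD200+ cells it was 0 throughout. The 8 genes other than Alas1 were higher in CD105+ cells under all alternatives. With spike-in scaling Alas1 turned to 0.44 against arthritic and 0.46 against non-immunized CD200+ cells, and the cause was not tested. Within CD200+ cells, where 0 genes passed, spike-in scaling turned the log2 changes of Slc25a38, Alas1, Uros, Urod and Fech to 0.049, 0.020, -0.64, 0.20 and 0.14. Without the 3 libraries over 80% spike-ins the same genes stood at 0.21, 0.25, -0.80, 0.39 and 0.15. Alad turned to -0.087 with RLE factors and -0.11 in DESeq2, and Urod and Fech to 0.17 and 0.038 in limma voom. With 1 library left out, Alas1 ranged from -0.61 to 0.52, Uros from -0.76 to 1.96, Alad from -0.056 to 0.31, Fech from -0.36 to 0.013 and Alas2 from -6.20 to 7.65.

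Counts over all genes moved more. Between arthritic CD105+ and CD200+ cells 1692 genes passed, against 545 with spike-in scaling, 3569 in DESeq2, 4624 in limma voom and 1090 without library 14. Against non-immunized CD200+ cells 1982 passed, against 278, 4085, 4993 and 1308 in the same order. Within CD200+ cells 0 passed in edgeR, 303 in DESeq2, 4 in limma voom and 2 in edgeR without library 3. Alas2, Slc25a38, Uros and Cpox each had 0 counts in at least 2 of the 9 CD200+ libraries, where levels under 0.174 to 0.914 CPM were not detectable.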
